A study of Mus musculus with 6 samples.

Results

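A set of 9 genes, S1pr1, S1pr4, Cd69, Selplg, Cd44, Cd55, Pecam1, Icam1 and Icam2, was followed in regulatory T cells of the bone marrow. They encode molecules by which T cells leave tissue, roll on vessel walls and adhere to other cells. They were taken by gene name from tables of 47643 genes, and each of the 9 matched 1 gene. Regulatory T cells are the suppressive CD4+ T cell lineage defined by the transcription factor FOXP3. The libraries hold total RNA of CD4+ cells that carry a GFP reporter of FOXP3. The cells were sorted by flow cytometry from the marrow of mice injected with Vk*MYC (3 libraries) and of control mice (3 libraries). All 6 libraries share the FOXP3-GFP reporter. Vk*MYC is a mouse model of multiple myeloma, a cancer of plasma cells in the marrow, and the labels call the injected group Multiple Myeloma. In the labels, myeloma replicates are numbered 3, 4 and 5, and control replicates 1, 3 and 5. The labels state no mouse age or strain and no treatment of the control mice.

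Lymphocytes leave tissues along a gradient of the lipid sphingosine 1-phosphate (S1P), which is high in blood and lymph and low inside tissues. S1PR1 is the G-protein-coupled receptor that reads this gradient on T cells, and the membrane protein CD69 binds S1PR1 and takes it off the cell surface. Entry and positioning use another set of molecules: PSGL-1, the product of Selplg, binds selectins during rolling, CD44 binds hyaluronan, and ICAM-1 and ICAM-2 bind the integrin LFA-1 on a partner cell. PECAM-1 (CD31) binds itself between cells, and CD55 protects cells from complement and binds the adhesion receptor CD97.

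Of the 9 genes, S1pr1, Cd55 and Pecam1 fell and Icam1 rose in the myeloma group, by edgeR's quasi-likelihood test at an adjusted p under 0.05. Cd55 had 39.6 ± 4.33 CPM in myeloma libraries and 81.1 ± 4.88 CPM in controls (SD, n = 3 each), and S1pr1 had 293 ± 4.52 and 519 ± 26.3 CPM. Pecam1 had 123 ± 4.69 CPM in myeloma and 176 ± 17.2 CPM in controls. Icam1 had 177 ± 14.8 CPM in myeloma and 116 ± 13.9 CPM in controls. S1pr4, Icam2, Cd69, Selplg and Cd44 did not pass the test. CPM are counts scaled to a common TMM-adjusted library total, and each p was adjusted by the Benjamini-Hochberg method over all 13235 genes tested.

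All 9 genes passed the low-count filter, with at least 300 reads in every library. The same test called 6.33% of all genes as higher in myeloma and 4.69% as lower. Among the 9 genes 1 was called higher and 3 lower, and the median log2 fold change was -0.26 beside 0.02 over all genes tested. The groups did not overlap for 5 of the 9, with the myeloma libraries below in 4 and above in 1. Over all genes the groups did not overlap for 33.3%, with myeloma below for 16.0% and above for 17.3%. The 9 genes were chosen with earlier results of these data known, so these counts do not test the set against all genes.

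**Figure D1:**
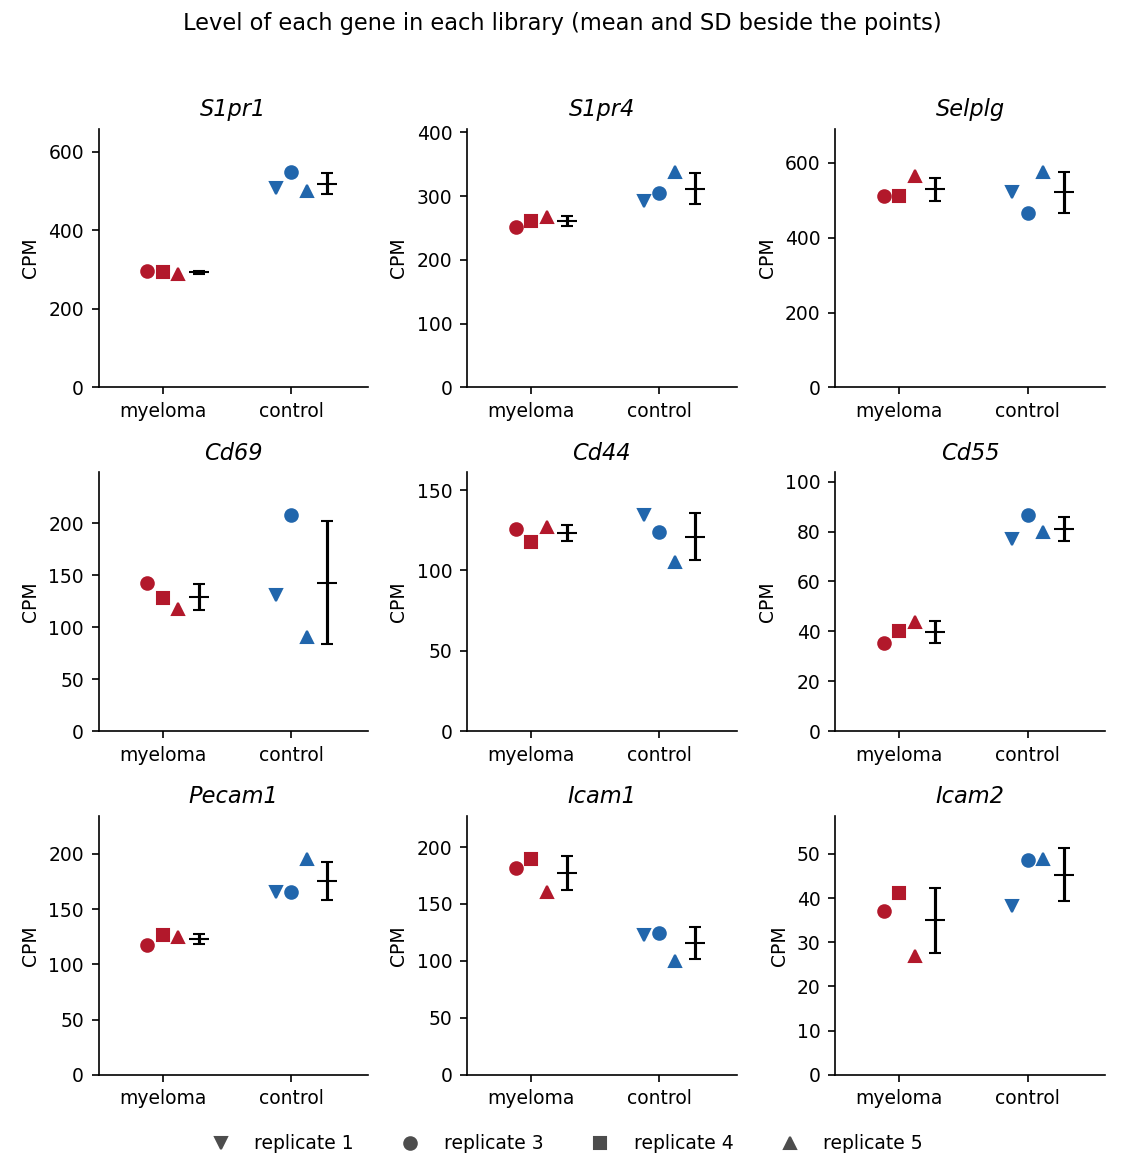
CPM of each of the 9 genes in each library, myeloma left and control right, with the mean and SD of 3 libraries beside the points. The groups are apart for S1pr1, S1pr4, Cd55, Pecam1 and Icam1, and control replicate 3 stands highest for Cd69 at 208 CPM.

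The sorted cells carried the markers of their lineage. Summed levels of Foxp3, Il2ra, Ctla4, Ikzf2, Cd4, Cd3d, Cd3e and Cd3g were 4999 to 5228 CPM in myeloma libraries and 4489 to 5910 CPM in controls. RNA of other cells was also present. Myeloma replicates 3, 4 and 5 had 119, 234 and 373 CPM of 8 plasma cell markers together, and controls 74.0 to 83.3 CPM. Most of the control sum was Txndc5, at 69.9 ± 3.24 CPM in controls and 87.3 ± 16.2 CPM in myeloma. Jchain had 2.66 ± 1.78 CPM in controls and 118 ± 80.8 CPM in myeloma. Of the 7 plasma cell markers tested, 3 were called higher in myeloma and 0 lower. The sum of 11 B cell markers was 34.1 to 81.3 CPM in myeloma libraries and 56.2, 275 and 351 CPM in control replicates 1, 3 and 5. Red cell transcripts summed to 3861 to 4794 CPM in myeloma libraries and 6744 to 14773 CPM in controls, and 9 neutrophil markers to 139 to 472 CPM and 64.2 to 187 CPM. Library totals were 10240620 to 12008165 expected counts in myeloma and 11688282 to 13314631 in controls. In sorted but bulk RNA, fewer cells of a type and less RNA per cell cannot be told apart.

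The promoters of Icam1 and Cd55 are shown because Icam1 was the gene that rose and Cd55 had the largest fold change of the 9. RefSeq promoter sequences were at hand for 4 of the 9 genes (Icam1, Cd55, Cd44 and S1pr4). Each stretch is the 250 bases before the RefSeq start on the GRCm38.p6 build, 5′ to 3′ on the gene's strand, with motif matches in capitals. The Icam1 stretch is chr9:21015690-21015939 on the plus strand and the Cd55 stretch is chr1:130462745-130462994 on the minus strand.
Icam1: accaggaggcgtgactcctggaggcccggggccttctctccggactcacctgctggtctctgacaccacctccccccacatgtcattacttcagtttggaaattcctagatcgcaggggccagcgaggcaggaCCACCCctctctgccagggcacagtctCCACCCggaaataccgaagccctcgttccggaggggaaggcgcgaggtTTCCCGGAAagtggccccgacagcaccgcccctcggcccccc
Cd55: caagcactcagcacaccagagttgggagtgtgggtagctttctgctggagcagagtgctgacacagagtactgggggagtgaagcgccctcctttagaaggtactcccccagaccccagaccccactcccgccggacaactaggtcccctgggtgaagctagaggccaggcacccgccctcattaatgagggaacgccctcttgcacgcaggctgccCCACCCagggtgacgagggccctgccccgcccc

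Motifs were searched as letters on both strands, and a match describes the sequence without showing that a factor binds there. The letters TTCNNNGAA, the GAS element that STAT factors bind, matched once in Icam1, 34 to 42 bases before the start, and 7.02% of 32851 promoter stretches of the same length held a match. The letters CCACCC, a core of sites for Kruppel-like factors, matched at 2 places in Icam1, at 1 in Cd55 and at 1 in S1pr4, and 28.1% of all stretches held a match. The capitals in Cd55 mark this motif only. No match overlapped another. None of the 4 stretches held the letters searched for the interferon-response element, GAAA and a further GAAA after 2 bases (2.98% of all stretches). None held the AP-1 letters TGANTCA (6.75%) or the letters searched for NF-kB, GGG and after 3 bases TTCC (4.65%). The Icam1 stretch does hold tggaaattcc, which differs from the NF-kB letters in its first base only. Such near matches were not searched. The Cd44 stretch held no match to any of the 5 motifs. GENCODE M21 sets the start of Icam1 at base 21015985 of chromosome 9, inside the gene as RefSeq draws it, so distances depend on the annotation.

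S1pr1, the receptor for exit from tissue, fell in myeloma. Its gene lies on chromosome 3 (ENSMUSG00000045092.8, 115710433 to 115715072 in mm10, minus strand). It had 297, 295 and 288 CPM in myeloma replicates 3, 4 and 5, against 507, 550 and 501 CPM in control replicates 1, 3 and 5. The 3 myeloma libraries lay close together, with a coefficient of variation of 1.54%, and every one was below every control. The log2 fold change was -0.83 (SE 0.08, adjusted p = 0.000526, edgeR). Left-out libraries gave log2 fold changes of -0.86 to -0.79, and S1pr1 was called in each of these 6 fits. In TPM, which divide by transcript length, S1pr1 had 133 ± 9.47 in myeloma and 279 ± 3.01 in controls.

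S1pr4, a related S1P receptor found mostly on blood and lymphoid cells, was not called, though its groups did not overlap. It had 252, 261 and 268 CPM in myeloma replicates 3, 4 and 5, against 292, 304 and 338 CPM in control replicates 1, 3 and 5. The log2 fold change was -0.26 (SE 0.09, 95% interval -0.45 to -0.07, adjusted p = 0.0827, edgeR). The receptor passed with DESeq2 (adjusted p = 0.0297) and with library totals in place of TMM scaling (adjusted p = 0.041). The gene is on chromosome 10 (81497747 to 81500132, minus strand).

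The ratio of the paired receptors was lower in every myeloma library than in every control. There were 1.18, 1.13 and 1.08 S1pr1 reads per S1pr4 read in myeloma replicates 3, 4 and 5, against 1.74, 1.80 and 1.48 in control replicates 1, 3 and 5. The log2 ratio, myeloma minus control, differed by -0.57 (p = 0.1, two-sided exact permutation test, 0.1 adjusted over 3 ratios). With 3 libraries against 3 this is the smallest p the test can give. Per length, S1pr4 stood above S1pr1 in each myeloma library, with TPM ratios of S1pr1 to S1pr4 of 0.83 to 0.90, and below it in each control, with ratios of 1.14 to 1.39.

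Cd69, an early activation marker as well as the partner of S1PR1, did not pass the test and was the most variable of the 9 in controls. It had 142, 129 and 117 CPM in myeloma replicates 3, 4 and 5, against 131, 208 and 90.4 CPM in control replicates 1, 3 and 5. The myeloma libraries lay inside the range of the controls, and the coefficient of variation was 9.73% in myeloma and 41.6% in controls. The log2 fold change was -0.14 (SE 0.25, 95% interval -0.70 to 0.42, adjusted p = 0.758, edgeR), so a difference in either direction was not excluded at this spread. Without control replicate 3 the estimate turned to 0.22 (adjusted p = 0.489).

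Control replicate 3 also had the highest summed level of 19 immediate early genes, the quick and short-lived response genes such as Fos and Jun. The sum was 3119, 2818 and 3893 CPM in myeloma replicates 3, 4 and 5, against 4881, 7981 and 5172 CPM in control replicates 1, 3 and 5. Of these 19 genes, 1 rose and 7 fell in myeloma. Control replicate 5, with the second highest sum, had the lowest Cd69. The part of this response in the Cd69 values was not tested. S1pr1 reads per Cd69 read were 2.08, 2.29 and 2.45 in myeloma replicates 3, 4 and 5, against 3.88, 2.65 and 5.55 in control replicates 1, 3 and 5, and the groups did not overlap. The log2 ratio differed by -0.76 (p = 0.1, two-sided exact permutation test, 0.1 adjusted over 3 ratios).

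**Figure D2:**
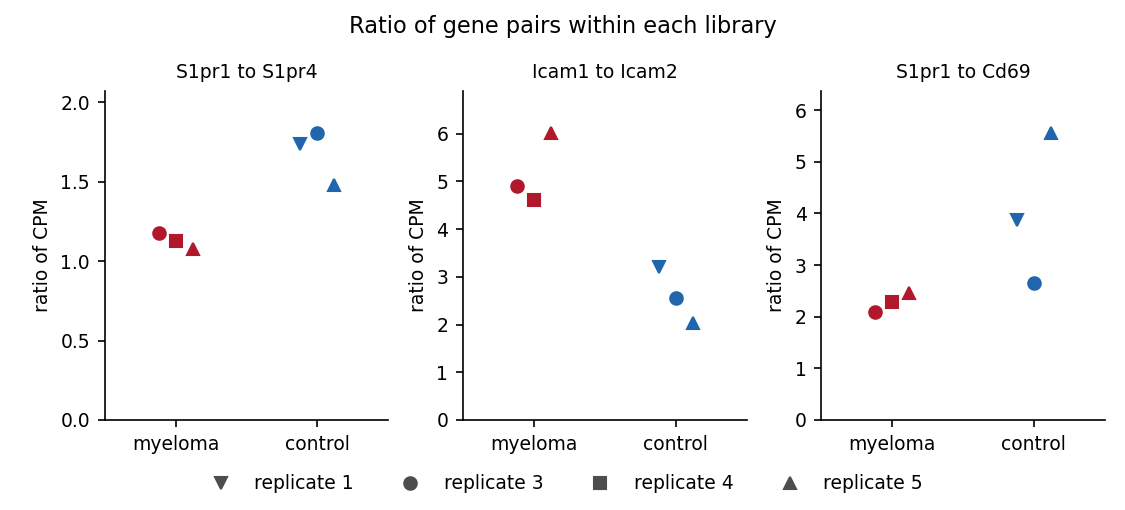
Ratio of CPM within each library for 3 gene pairs, myeloma left and control right, 1 point a library. S1pr1 to S1pr4 and S1pr1 to Cd69 are lower in every myeloma library than in every control, and Icam1 to Icam2 is higher.

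Of the 21 genes listed for the S1P pathway, 17 were tested, and 1 rose, 1 fell and 15 did not pass, with a median log2 fold change of -0.14. The gene that fell was S1pr1. The gene that rose was S1pr2, an S1P receptor that restrains migration, at 29.1 ± 3.74 CPM in myeloma and 19.4 ± 2.05 CPM in controls, with a log2 fold change of 0.58 ± 0.14 (SE) and an adjusted p of 0.0345 by edgeR. Among fits with 1 library left out, S1pr2 was called only without myeloma replicate 5, and its adjusted p was 0.0565 to 0.132 without myeloma replicate 3 or 4 or control replicate 1, 3 or 5. Klf2, the transcription factor that drives S1pr1 in mouse T cells, had 299 ± 5.29 CPM in myeloma and 339 ± 20.7 CPM in controls. It was not called (log2 fold change -0.18, SE 0.08, adjusted p = 0.182, edgeR). Its groups did not overlap, with myeloma below, as for 16.0% of all genes tested. S1pr3 and S1pr5 were under the filter, at means of 0.189 and 0.804 CPM in myeloma and 0.141 and 0.0744 CPM in controls.

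Selplg, the selectin ligand PSGL-1, was the most abundant of the 9 genes in every library, both in CPM and in TPM, except that S1pr1 exceeded it in CPM in control replicate 3. It had 511 to 564 CPM in myeloma libraries and 467 to 576 CPM in controls, so the myeloma range lay within that of the controls. The log2 fold change was 0.02 (SE 0.10, 95% interval -0.21 to 0.25, adjusted p = 0.922, edgeR). Its sign turned without myeloma replicate 5 (-0.035) or control replicate 3 (-0.056), with library totals alone (-0.056) and with upper-quartile factors (-0.00012).

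Enzymes add sulphate and sugars to selectin ligands such as PSGL-1. Of 21 genes listed for selectins, their ligands and these enzymes, 18 were tested. By edgeR 2 rose, 1 fell and 15 did not pass, with a median log2 fold change of 0.03. DESeq2 and limma-voom each called 2 higher and 2 lower. The number called lower was 3 with library totals alone and 0 with the replicate number as a block. Tpst2, which sulphates tyrosines, had 105 ± 3.16 CPM in myeloma and 83.8 ± 5.03 CPM in controls, with a log2 fold change of 0.33 ± 0.08 (SE) and an adjusted p of 0.0361. Chst2, a sulphotransferase acting on sugar chains of selectin ligands, had 42.7 ± 10.2 and 23.2 ± 6.01 CPM (log2 fold change 0.88, SE 0.21, adjusted p = 0.0334). Glg1, a Golgi protein known as an E-selectin ligand, fell, at 165 ± 3.63 and 224 ± 23.3 CPM (log2 fold change -0.44, SE 0.09, adjusted p = 0.0199). Few of these calls held when 1 library was left out: Tpst2 was called only without myeloma replicate 5, Chst2 only without control replicate 1, and Glg1 only without one or the other of these. In the remaining fits their adjusted p-values were 0.0576 to 0.154.

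Cd44, a hyaluronan receptor and marker of activated T cells, did not differ beyond the spread between libraries. It had 118 to 127 CPM in myeloma libraries and 105 to 134 CPM in controls, a log2 fold change of 0.03 (SE 0.10, 95% interval -0.20 to 0.26, adjusted p = 0.886, edgeR). Its sign turned without control replicate 5 (-0.074), with library totals alone (-0.045) and with an offset for effective length (-0.034). Of 13 genes listed for CD44, hyaluronan and the proteins that tie CD44 to the cytoskeleton, 9 were tested and edgeR called none in either direction, with 2 of them, Rdx and Hyal2, at an unadjusted p under 0.05. Limma-voom also called none, and DESeq2 called Rdx lower. Ezr, Rdx and Msn, which encode these linkers, had log2 fold changes of 0.03, -0.34 and -0.03, with Rdx at an adjusted p of 0.0586 by edgeR and 0.0248 by DESeq2 (0.0112 to 0.156 over the other settings and the fits with 1 library left out).

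Cd55 had the largest fold change of the 9 genes. It had 35.1, 40.0 and 43.8 CPM in myeloma replicates 3, 4 and 5, against 77.0, 86.5 and 79.8 CPM in control replicates 1, 3 and 5. Every myeloma library was below every control by a wide margin. On the log2 scale Cd55 fell by 1.03 (SE 0.10) with an adjusted p of 0.000641 by edgeR. The estimate was -1.12 to -0.96 when 1 library was left out, and Cd55 was called in each of the 6 fits. Cd55 (ENSMUSG00000026399.12) lies on chromosome 1 (130439027 to 130462744, minus strand). Its close copy Cd55b had at most 2.15 expected counts in a library, and the split between the copies is an estimate of RSEM. An antisense gene, Gm16083, overlaps its start and had 1 to 7 counts a library.

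Of 9 genes listed for complement regulation and the CD55 partner, 5 were tested, Cd55 fell and none of the other 4 was called by edgeR, DESeq2 or limma-voom, and none of the 4 had an unadjusted p under 0.05 by edgeR. Cr1l, the mouse membrane complement regulator Crry, had 109 ± 15.1 CPM in myeloma and 103 ± 2.97 CPM in controls (log2 fold change 0.08, adjusted p = 0.667). Adgre5, which encodes the CD55 receptor CD97, had 476 ± 33.0 and 437 ± 17.9 CPM (log2 fold change 0.12, adjusted p = 0.395). Cd59a and Cd59b were under the filter. The median log2 fold change of the 5 genes was 0.10.

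Pecam1, an adhesion molecule of endothelium, platelets and leukocytes, fell. It had 118, 127 and 124 CPM in myeloma replicates 3, 4 and 5, against 166, 166 and 195 CPM in control replicates 1, 3 and 5. The groups did not overlap, and control replicate 5 was highest. The log2 fold change was -0.52 (SE 0.09, adjusted p = 0.0104, edgeR), and the call held whichever of the 6 libraries was left out (adjusted p from 0.0152 to 0.0483). Pecam1 lies on chromosome 11 (106654217 to 106750628, minus strand).

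Pecam1 is also a gene of endothelium, platelets and B cells. Myeloma replicates 3, 4 and 5 had 2.45, 4.86 and 19.4 CPM of 10 endothelial markers together and controls 2.06 to 4.29 CPM, with 1 to 5 of the 10 at 0 in a library. The sum of 7 megakaryocyte markers was 7.34 to 14.2 CPM in myeloma libraries and 6.32 to 9.02 CPM in controls. The B cell marker sums overlapped between the groups and varied among controls, and 6 of the 11 B cell markers were called lower in myeloma. The part of RNA from these cells in the Pecam1, Cd55 and S1pr1 values was not tested.

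Icam1, the inducible ligand of LFA-1, was the gene that rose. It had 181, 189 and 161 CPM in myeloma replicates 3, 4 and 5, against 123, 124 and 99.6 CPM in control replicates 1, 3 and 5. The groups did not overlap, and the level in myeloma was 1.53-fold the control level (log2 fold change 0.62, SE 0.11, adjusted p = 0.0104, edgeR). Without myeloma replicate 4 the adjusted p was 0.0513 at a log2 fold change of 0.57, and the call held in the other 5 fits with a library left out. Icam1 (ENSMUSG00000037405.7) lies on chromosome 9 (21015985 to 21028817, plus strand), and the antisense gene Gm47079 overlaps its 3′ end. Reads there cannot be assigned to a strand, since the library kit does not mark it.

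Icam1 is also made by myeloid cells and responds to interferons and NF-kB. The sum of 8 macrophage markers was 44.2, 78.9 and 342 CPM in myeloma replicates 3, 4 and 5, against 58.5, 25.2 and 27.4 CPM in control replicates 1, 3 and 5. The sums overlapped between the groups, and 2 of the 8 markers were called higher in myeloma. All 20 genes listed for the response to type I interferon rose, with sums of 4254 to 5733 CPM in myeloma libraries and 1094 to 1277 CPM in controls. The part of macrophage or plasma cell RNA and of the interferon response in the Icam1 values was not tested.

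**Figure D3:**
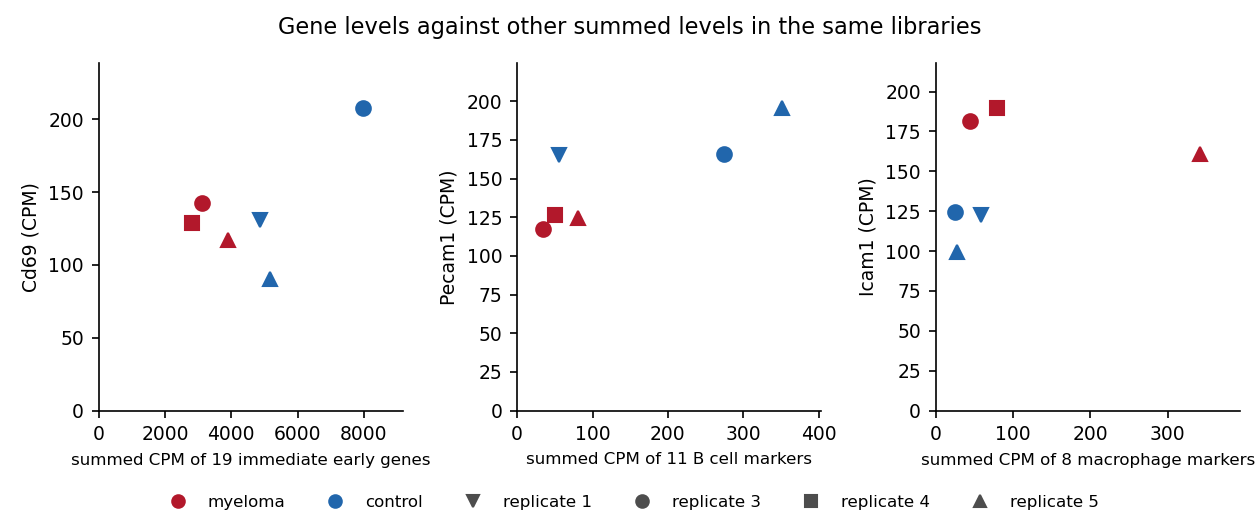
Cd69, Pecam1 and Icam1 (CPM, vertical) in each library against the summed CPM of immediate early genes, B cell markers and macrophage markers. The B cell sum runs from 34.1 to 81.3 CPM in myeloma libraries and from 56.2 to 351 CPM in controls, and the macrophage sum from 44.2 to 342 CPM and from 25.2 to 58.5 CPM; the part of these cells or genes in the 3 levels was not tested.

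Icam2, the constitutive LFA-1 ligand, did not pass the test. It had 37.0, 41.2 and 26.8 CPM in myeloma replicates 3, 4 and 5, against 38.3, 48.7 and 48.9 CPM in control replicates 1, 3 and 5. The groups overlapped, since myeloma replicate 4 exceeded control replicate 1. The log2 fold change was -0.37 (SE 0.17, 95% interval -0.75 to 0.0041, adjusted p = 0.183, edgeR). It passed only in the fit with no low-count filter (adjusted p = 0.0374).

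The ratio of the paired LFA-1 ligands was higher in every myeloma library than in every control. Icam1 reads per Icam2 read were 4.91, 4.60 and 6.0 in myeloma replicates 3, 4 and 5, against 3.21, 2.56 and 2.04 in control replicates 1, 3 and 5. The log2 ratio differed by 1.01 without overlap (p = 0.1, two-sided exact permutation test, 0.1 adjusted over 3 ratios). Per length, Icam1 exceeded Icam2 in every myeloma library (TPM ratio 1.40 to 1.88), while in controls the ratio was 0.63 to 1.0.

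Of 26 genes listed for immunoglobulin-type adhesion molecules, 17 were tested, and 3 rose, 2 fell and 12 did not pass, with a median log2 fold change of 0.27. Beside Icam1, Cd2, a T cell adhesion and costimulatory receptor, had 579 ± 10.8 CPM in myeloma and 445 ± 42.3 CPM in controls, with a log2 fold change of 0.38 ± 0.09 (SE) and an adjusted p of 0.0331 by edgeR. Cadm1, a cell adhesion molecule at low levels here, was called higher (adjusted p = 0.0296, edgeR). It had 2.77 ± 2.17 CPM in myeloma and 0.338 ± 0.101 CPM in controls. The control libraries were under the minimum count of 10, so Cadm1 passed the filter only through the myeloma libraries. Its log2 fold change was 2.99, and 2.12 without myeloma replicate 5. Beside Pecam1, L1cam, a neural adhesion molecule also found on leukocytes, fell (log2 fold change -0.46, SE 0.11, adjusted p = 0.0296, edgeR). With 1 library left out, Cd2 was called only without myeloma replicate 5 or control replicate 1, Cadm1 only without myeloma replicate 3, and L1cam only without myeloma replicate 3 or control replicate 1. L1cam lost its call with the effective-length offset (adjusted p = 0.46), at a log2 fold change of -0.24.

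**Figure D4:**
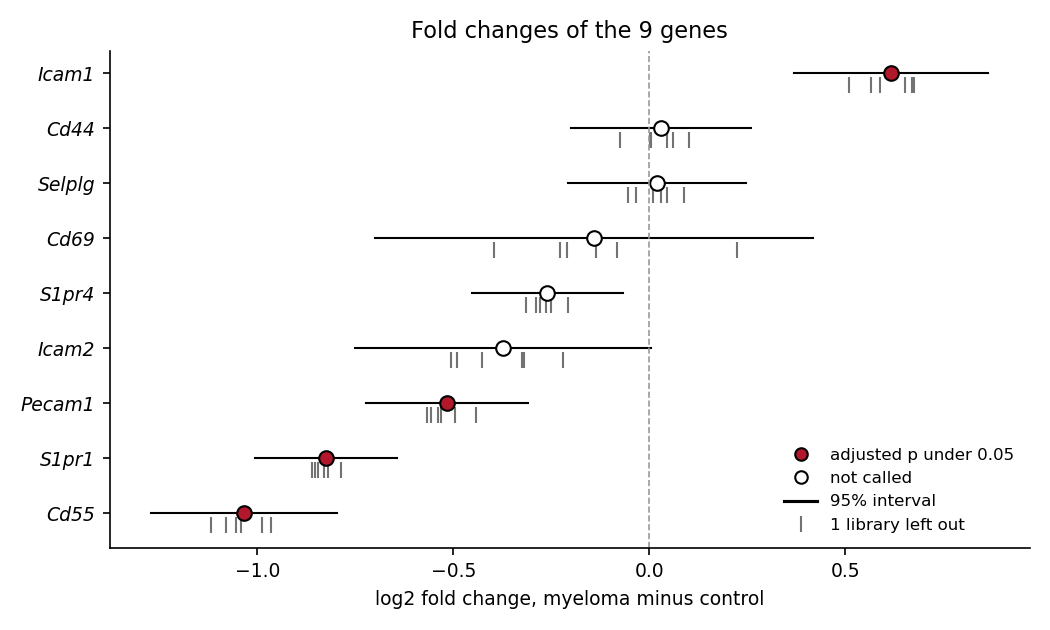
Log2 fold change of each of the 9 genes, myeloma minus control, with its 95% interval from the edgeR fit (line) and the 6 values with 1 library left out (ticks). Filled points mark adjusted p under 0.05: Icam1 at 0.62, Pecam1 at -0.52, S1pr1 at -0.83 and Cd55 at -1.03.

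Compared per length, the 9 genes kept Selplg first in both groups, at 467 ± 8.30 TPM in myeloma and 545 ± 80.2 TPM in controls. In myeloma the order went on with S1pr4 (153 TPM), S1pr1 (133), Cd69 (108), Icam1 (98.0), Icam2 (62.7), Pecam1 (58.2), Cd44 (42.8) and Cd55 (24.0). In controls it went on with S1pr1 (279 TPM), S1pr4 (219), Cd69 (133), Pecam1 (104), Icam2 (97.5), Icam1 (75.5), Cd55 (61.4) and Cd44 (52.0). Neighbours whose libraries overlapped were Cd69 with Icam1 and Icam2 with Pecam1 in myeloma, and Cd69 with Pecam1, Pecam1 with Icam2 and Icam2 with Icam1 in controls. All other neighbours were apart in each group.

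TPM are set to the same total in each library and not rescaled further. Their median log2 difference over the genes tested was -0.23, against 0.02 for CPM, so differences in TPM read lower throughout. The TPM differences of Cd55 (-1.36), S1pr1 (-1.07), Pecam1 (-0.83), Icam2 (-0.64) and S1pr4 (-0.51) lay below that shift and that of Icam1 (0.38) above it. Those of Cd69 (-0.30), Cd44 (-0.28) and Selplg (-0.22) lay within 0.1 of it. In TPM the groups overlapped for Cd69 and Selplg only. Icam2 and Cd44, whose groups overlapped in CPM, were lower in every myeloma library than in every control on this scale. The share of all genes whose groups are apart in TPM was not computed. With the shift of -0.23, being lower in TPM is not particular to these genes.

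The mean transcript length that RSEM assigns to a gene follows its isoform mix, and it varied between libraries for 6 of the 9 genes. Cd55 transcripts averaged 2281 to 2350 bases in myeloma libraries and 2210 to 2240 in controls, and Cd44 transcripts 3865 to 3998 and 3716 to 3815 bases. Cd69 transcripts averaged 1732 to 1774 bases in myeloma and 1787 to 1864 in controls. The groups did not overlap for these 3 genes, longer in myeloma for Cd55 and Cd44 and shorter for Cd69. Of 9186 genes tested whose length varied, 13.5% were apart in this way, 7.81% longer in myeloma and 5.73% shorter. Which isoforms differed is not shown by gene tables, and lengths were not tested. With an offset for effective length Cd55 stayed lower (log2 fold change -1.10, adjusted p = 0.00141, edgeR).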

How the data were processed

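Per the labels' protocols, RNA was extracted with the RNeasy Micro kit and libraries were made with the NEBNext Ultra RNA kit, which does not mark strand. Picard, STAR, RSEM, DESeq2 and the build mm10 appear in the submitters' processing notes, and tool versions were not given in the sources used here. The authors deposited 1 RSEM gene table per library, holding expected counts (estimates of reads per gene, not normalized), TPM and FPKM. FPKM entered no result. The authors' TPM are length-scaled, per the file headers.

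Members and lists were chosen with earlier results of these data known. Files give gene names in capitals, and 47224 of 47643 IDs matched GENCODE M21 symbols. Expected counts were rounded, filtered with filterByExpr (minimum count 10, minimum total 15), TMM-scaled and fitted with glmQLFit and glmQLFTest (edgeR 4.0.16, R 4.3.3) as myeloma minus control over all 6 libraries, with Benjamini-Hochberg adjustment. The SE is the fold change over the square root of F. Myeloma and control groups came from sample titles. Nothing ties replicate numbers to shared days or litters, so a p-value reflects only how these libraries vary, which may be technical. Named beside the 9 genes were up to 4 called genes of each pathway list, and Klf2, S1pr3, S1pr5, Cd59a, Cd59b, Cr1l, Adgre5, Ezr, Rdx and Msn, chosen for their role. Hyal2, Txndc5 and Jchain were named after their values were seen. One listed gene is not reported here. The fit was also run on simulated data to check the code, and no result given here rests on that run. With 3 libraries in each group, a gene that did not pass may still differ.

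Alternatives were RLE, upper-quartile and no scaling factors, 2 other filters, DESeq2 1.42.0, limma-voom 3.58.1, an effective-length offset, leaving out each library, blocking on replicate number, and scaling without mitochondrial, haemoglobin and immunoglobulin genes. Exact permutation tests of ratios used CPM.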

Additional observations from a re-analysis of the deposited data

How the results depend on the processing

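S1pr1 and Cd55 kept their direction and their call in all 16 other settings, 10 with all libraries and 6 with a library left out. Pecam1 lost its call only with the replicate number as a block (log2 fold change -0.57, adjusted p = 0.0526, edgeR), and Icam1 only without myeloma replicate 4 (adjusted p = 0.0513). Called higher among the 9 genes were 0 to 1 and called lower 3 when 1 library was left out. With all libraries, 2 were lower with the block and 4 with library totals alone, DESeq2 (S1pr4 added in both) or no filter (Icam2 added). The causes were not tested.

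Over all genes, 838 were higher and 621 lower by edgeR. Leaving out 1 library gave 331 to 836 higher and 123 to 546 lower, in fits with fewer samples. With no low-count filter the counts were 1337 and 1102, and with the replicate number as a block 362 and 142. Library totals alone gave 1004 lower beside 633 higher, and the effective-length offset 372 lower. Higher genes made up 57.4% of calls with TMM and 38.7% with library totals alone.

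The fold change turned sign for Selplg with upper-quartile factors (-0.00012), library totals alone (-0.056) and without myeloma replicate 5 (-0.035) or control replicate 3 (-0.056), for Cd44 with library totals alone (-0.045), the effective-length offset (-0.034) and without control replicate 5 (-0.074), and for Cd69 without control replicate 3 (0.22). With 1 library left out the range was -0.056 to 0.087 for Selplg, -0.074 to 0.10 for Cd44 and -0.40 to 0.22 for Cd69. The 3 ratios kept their sign in TPM and with each library left out. The S1pr1 to Cd69 ratio had p = 0.2 without myeloma replicate 3, 4 or 5 (two-sided exact permutation test). In its remaining fits, and in every fit of the other ratios, this p was 0.1.

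Groups shared the replicate numbers 3 and 5 only, and deviations of the same-numbered libraries correlated at 0.01 and 0.10, so the numbers were not taken as pairs. The block rests on those libraries, and under it S1pr2, Chst2, Tpst2, Glg1, Cd2, Cadm1 and L1cam were not called (adjusted p 0.0552 to 0.246). S1pr2 and Tpst2 were also not called with library totals alone or the effective-length offset, Cd2 with library totals alone, Tpst2 with no filter and Cadm1 with limma-voom. Of the 9 genes, Cd69 had the widest 95% interval and Icam2 the next.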
